A study of Mus musculus with 12 samples.

Results

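Mouse chromosome 6 was followed gene by gene, from its proximal to its distal end, in tumours that do or do not carry a silenced Cosmc gene. Members were chosen by position and by mean level, as protein-coding genes of the chromosome with a mean of at least 5 CPM over 12 tumours (CPM is a gene's count divided by the library total, times 1e+06), and were ordered by start position. The log2 ratio of Tn over WT tumours, known when the chromosome was picked, was not used to pick genes. The rule kept 539 of the 1110 protein-coding genes of the chromosome, where the table held 3231 genes of any kind, and 57186 over the genome. All 539 were among the 19255 genes tested. The tumours grew in mice after injection of 4T1, an established line of mouse mammary carcinoma that serves to model triple-negative disease. In 6 tumours the cells were parental (WT), and in the other 6 they carried a CRISPR/Cas9 silencing of Cosmc (Tn). Poly(A) RNA of whole tumour tissue was sequenced, and the labels name the samples of each group biological replicates and give 1 batch for all. The library numbers separate the groups, from 2 to 12 in Tn and from 17 to 24 in WT tumours, and whether they follow an order of preparation is not given in the sources used here, so such an order and the group cannot be told apart. The age, sex and strain of the mice, the size of each tumour and whether the Tn cells derive from 1 clone are not given in the sources used here. The host's cells carry an intact Cosmc gene in both groups.

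Cosmc, whose gene symbol is C1galt1c1, is the chaperone that T-synthase needs to fold. T-synthase, encoded by C1galt1 on chromosome 6, adds galactose to the first sugar of mucin-type O-glycans, and without it the glycan stays as the short Tn antigen. The chromosome also carries the imprinted Sgce-Casd1-Ppp1r9a-Pon cluster, the caveolin and Met genes, the Hoxa cluster, the Gimap genes, the CD8 and CD4 co-receptors and the natural killer gene complex, a row of lectin receptors of immune cells. In bulk tumour RNA a gene's level sums carcinoma cells and host cells, and fewer cells of a type and less RNA per cell cannot be told apart.

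The 6 promoters shown here belong to members on which the comparison turns. They are 3 genes near the proximal end that rose in Tn tumours (C1galt1, Sem1, Ndufa4), 1 proximal gene that fell (Tfpi2), and 2 genes farther along, Hoxa5, which fell, and Gimap3, which rose. Each is the 250 bases before the start of the canonical transcript in GENCODE M39 on build GRCm39, written 5′ to 3′ on the gene's strand. None overlaps an annotated exon. Capitals mark CG dinucleotides, the sites of vertebrate DNA methylation. The windows are chr6:7844384-7844633 on the plus strand for C1galt1, chr6:6578690-6578939 on the minus strand for Sem1, chr6:11907497-11907746 on the minus strand for Ndufa4, chr6:3968418-3968667 on the minus strand for Tfpi2, chr6:52181568-52181817 on the minus strand for Hoxa5 and chr6:48747827-48748076 on the minus strand for Gimap3.
C1galt1: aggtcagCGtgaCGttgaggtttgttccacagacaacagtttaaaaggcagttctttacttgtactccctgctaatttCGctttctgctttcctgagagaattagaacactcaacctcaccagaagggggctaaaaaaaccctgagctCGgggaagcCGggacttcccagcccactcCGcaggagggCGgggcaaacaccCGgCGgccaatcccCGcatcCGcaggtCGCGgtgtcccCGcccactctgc
Sem1: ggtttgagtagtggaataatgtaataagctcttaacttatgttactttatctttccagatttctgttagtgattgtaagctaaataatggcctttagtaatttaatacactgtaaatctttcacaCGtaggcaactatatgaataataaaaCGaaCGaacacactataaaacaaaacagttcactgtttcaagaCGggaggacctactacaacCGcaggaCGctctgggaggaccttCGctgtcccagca
Ndufa4: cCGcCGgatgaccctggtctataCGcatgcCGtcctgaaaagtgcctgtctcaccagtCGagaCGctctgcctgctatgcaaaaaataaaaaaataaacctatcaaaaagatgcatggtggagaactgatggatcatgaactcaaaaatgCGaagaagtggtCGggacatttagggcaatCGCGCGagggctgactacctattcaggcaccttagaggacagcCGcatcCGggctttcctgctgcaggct
Tfpi2: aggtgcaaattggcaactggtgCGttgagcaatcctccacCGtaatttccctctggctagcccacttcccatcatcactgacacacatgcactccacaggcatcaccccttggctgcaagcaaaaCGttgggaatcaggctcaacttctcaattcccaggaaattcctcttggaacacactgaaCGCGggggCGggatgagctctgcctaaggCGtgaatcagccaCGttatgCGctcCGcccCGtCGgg
Hoxa5: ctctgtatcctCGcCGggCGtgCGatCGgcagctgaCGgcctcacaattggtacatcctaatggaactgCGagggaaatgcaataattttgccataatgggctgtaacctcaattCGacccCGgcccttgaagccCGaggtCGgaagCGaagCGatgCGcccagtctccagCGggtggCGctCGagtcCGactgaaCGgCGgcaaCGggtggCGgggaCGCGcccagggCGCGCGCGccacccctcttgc
Gimap3: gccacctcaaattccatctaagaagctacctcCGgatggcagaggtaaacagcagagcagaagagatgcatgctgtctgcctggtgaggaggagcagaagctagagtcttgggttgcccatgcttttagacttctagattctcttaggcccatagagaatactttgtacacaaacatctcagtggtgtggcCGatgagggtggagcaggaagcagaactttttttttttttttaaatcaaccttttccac

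The windows ranged from CG-rich to CG-poor. They held 14 CG dinucleotides in C1galt1, 7 in Sem1, 13 in Ndufa4, 12 in Tfpi2, 28 in Hoxa5 and 2 in Gimap3. The median over all 539 members was 11 and over the 10619 autosomal protein-coding genes at the same level cut it was 13. Among the 42 members that start in the first 25 Mb it was 9.5, and among the 30 of these that were higher in Tn tumours it was 9. Members that rose at least 2-fold anywhere on the chromosome had a median of 4, and those that fell at least 2-fold had 5. Both medians were below that of all members. The upper quartile was 8.5 for these rises and 12 for these falls, so some of the falls lay above the median member. Genes with 2-fold changes on other chromosomes were not examined. A search for 4 short motifs covered both strands and counted any match, overlapping or not. The SP1 box GGGCGG was in 41.0% of the members' promoters and 40.0% of those of the 30 proximal genes, against 50.8% at the level cut genome-wide. CCAAT was in 34.1%, 30.0% and 35.5%, in the same order, and TATAAA in 9.46%, 13.3% and 7.08%. The ETS core CCGGAAG was in 11.1% of the members' promoters and 10.3% genome-wide. Matches are descriptions of the letters, not of binding.

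The target gene of the silencing, Cosmc, lies on the X chromosome and was lower in Tn tumours. C1galt1c1 had a lowest, median and highest level of 15.5, 20.5 and 23 CPM in WT tumours and of 10.8, 11.1 and 12.9 CPM in Tn tumours. The ranges did not overlap (log2 fold change -0.80 ± 0.11 SE, edgeR adjusted p = 0.000201). Over the 313 X-linked genes at the level cut the median was -0.12, and 28.8% were lower, beside 17.4% of autosomal genes. How far the X chromosome as a whole or the mix of cells enters the fall of C1galt1c1 was not tested. Library totals ran from 113575859 to 156880766 counts. Markers of other cells differed between the groups. The summed level of 7 T cell markers was 7.37 to 17.9 CPM in WT and 33.3 to 412 CPM in Tn tumours, with 7 of 7 higher. That of 6 natural killer cell markers was 11.6 to 25 and 35.2 to 166 CPM (5 of 6 higher), and that of 7 macrophage markers was 775 to 1196 and 1148 to 3349 CPM (5 of 7 higher). Fibroblast markers went the other way, from 5836 to 15840 CPM in WT to 2297 to 3598 CPM in Tn tumours, with 6 of 7 lower and 1 higher. No marker of these 4 lists was at 0 in any tumour. The 8 markers of carcinoma epithelium summed to 2304 to 4702 and 2031 to 3465 CPM, and 2 of the 8 were lower. Each of 3 libraries stood apart from the rest, Tn tumour 4 in B cell markers (602 CPM against at most 2.59 in any other tumour), Tn tumour 6 in keratinocyte markers (2968 CPM) and WT tumour 6 in adipocyte markers (2130 CPM).

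Along the whole chromosome, more members were higher in Tn tumours than lower. Of the 539 members, 196 (36.4%) rose and 55 (10.2%) fell, while 288 did not pass (edgeR quasi-likelihood test, adjusted p under 0.05 over all 19255 genes). Over all autosomal protein-coding genes at the level cut, 25.9% were called higher and 17.4% lower, and over all genes tested 19.5% and 17.4%. All 6 Tn tumours lay above all 6 WT tumours in 102 members, 18.9% of them, and below in 35, or 6.49%, where the level-cut background was 12.6% and 9.23%. Changes of at least 2-fold were fewer, with 35 members higher and 23 lower against background shares of 4.13% and 3.61%. In 17 members the mean was under 5 CPM in WT tumours alone (14 of them higher) and in 14 in Tn tumours alone (12 lower), so that the level cut favoured their direction. Without the 3 libraries that stood apart, 198 members were higher and 40 lower. The chromosome was put forward with the Tn over WT ratio in view, so these shares are descriptions and carry no test of the chromosome.

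The median log2 fold change of the members was 0.17, with quartiles of -0.05 and 0.44. The median over all 10619 autosomal genes was 0.059 and over the 10080 on other autosomes 0.052. Among the 20 chromosomes with a median, chromosome 6 stood between chromosome 4, the highest (0.19), and chromosome 1 (0.15), and chromosome 10 was lowest (-0.19). Relative to each tumour's own autosomal median, the members' median ran from -0.051 to 0.033 in the 6 WT tumours and from 0.023 to 0.20 in the 6 Tn tumours. The lowest Tn tumour therefore lay inside the range of the WT tumours, and as a whole the chromosome did not stand clear of them.

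**Figure D1:**
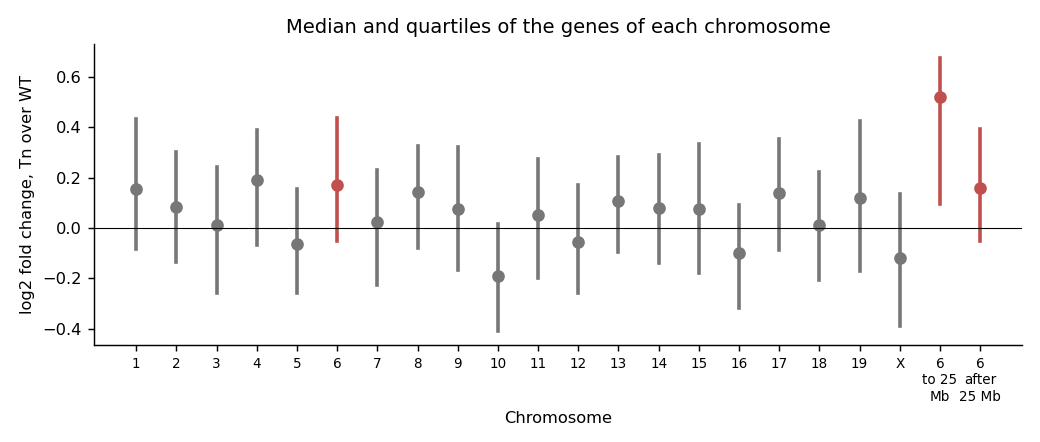
Median (point) and quartiles (ends of the bar) of the log2 fold change, Tn over WT, of the protein-coding genes with a mean of at least 5 CPM on each chromosome, and of chromosome 6 divided at 25 Mb (red). Chromosome 6 as a whole, at 0.17, sat among several others, while its first 25 Mb had a median of 0.52 and the remainder 0.16.

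The difference was uneven along the chromosome and largest at the proximal end. In the first 10 Mb, 15 of 20 members rose and 3 fell, with a median log2 fold change of 0.56. In the next 10 Mb, 11 of 15 rose. None fell (0 also at an unadjusted p under 0.05 in edgeR and an adjusted p under 0.05 in DESeq2). The median of this bin was 0.49. Among 230 autosomal bins of 10 Mb with at least 10 genes, these had ranks 1 and 3 from the highest, and rank 2 was the bin that starts at 170 Mb on chromosome 1 (0.51). From 20 to 30 Mb the median was 0.04, rank 126. The remaining bins lay between 0.04 (60 to 70 Mb, 7 members) and 0.23 (40 to 50 Mb, 37 members). In the gene-rich bin from 120 to 130 Mb, 36 of 81 members rose and 7 fell (median 0.22), and without the members on the immune and stromal lists its median over the autosomes moved from 0.16 to 0.094. In bins of 5 Mb, the first 5 had medians of 0.54, 0.63, 0.59, 0.41 and 0.34, and the sixth had 0.035.

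**Figure D2:**
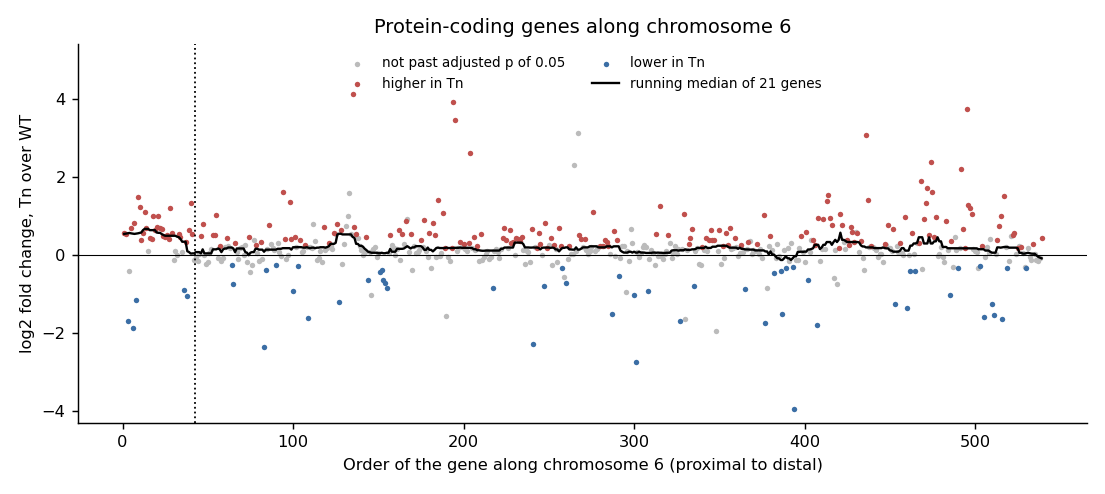
Log2 fold change, Tn over WT, of each of the 539 members against its order along chromosome 6, coloured by whether it passed an adjusted p of 0.05, with a running median of 21 genes (black). The dotted line stands at the last member to start before 25 Mb. To its left the running median stays near 0.5 before it drops, and to its right it runs lower, with single genes far above and below.

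Each Tn tumour showed the proximal rise by itself. Relative to its own autosomal median, the first 10 Mb had a median log2 ratio to WT of 0.38 to 0.56 in the 6 Tn tumours and of -0.13 to 0.23 in the 6 WT tumours, each WT tumour being set against the other 5. For 10 to 20 Mb the ranges were 0.36 to 0.64 and -0.012 to 0.023. The groups did not overlap in either bin. From 20 to 30 Mb they did, at -0.030 to 0.15 and -0.039 to 0.075. In each of the other 12 bins the lowest Tn tumour also fell within or below the range of the WT tumours. The overlap was slight from 120 to 130 Mb, where Tn tumours ran from 0.0686 to 0.22 and the highest WT tumour was at 0.0689.

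**Figure D3:**
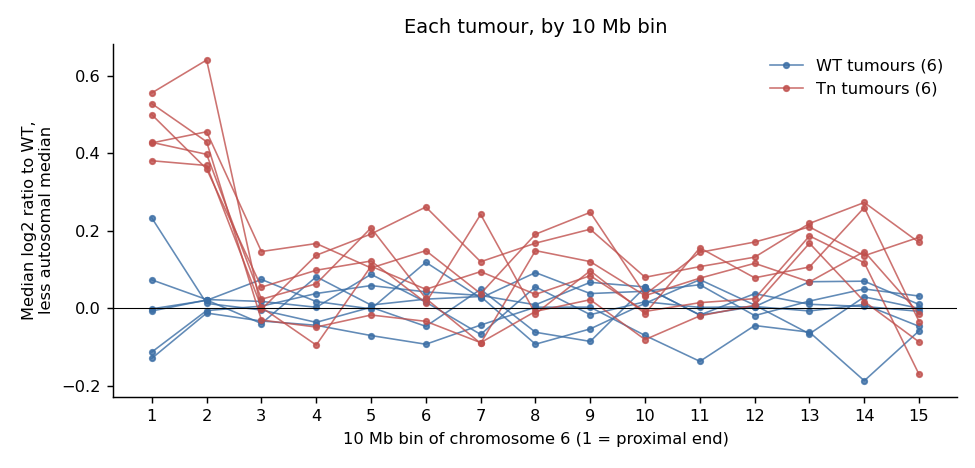
Median log2 ratio of each tumour to the WT tumours, less that tumour's autosomal median, in 15 consecutive bins of 10 Mb along chromosome 6 (lines join the bins of 1 tumour). All 6 Tn tumours (red) lie between 0.36 and 0.64 in bins 1 and 2, above every WT tumour (blue). In every bin from bin 3 on, the lowest Tn tumour lies within or below the range of the WT tumours.

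The first 25 Mb, a border drawn after the values were seen, held 42 members from Samd9l (start 3372257) to Wasl (end 24665008). Of these, 30 rose (71.4%), 5 fell and 7 did not pass, beside the background of 25.9% and 17.4%. Their median log2 fold change was 0.52, and after the autosomal median was taken off it was 0.46. Per tumour it ran from 0.36 to 0.57 in Tn (mean 0.44 ± 0.07 SD, n = 6) and from -0.073 to 0.080 in WT tumours. Tn tumours therefore lay clear of WT tumours. The other 497 members had a median of 0.16, and 166 of them (33.4%) rose and 50 fell. Their per-tumour values, 0.0036 to 0.17 in Tn and -0.050 to 0.033 in WT, overlapped. Without the 3 libraries that stood apart, 30 members again rose and the median over the autosomes was 0.47. With the border at 20 Mb, 26 of 35 members rose, and with the border at 30 Mb 36 of 58 did.

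Over all 42 members of this stretch, the log2 fold change had quartiles of 0.096 and 0.68 around the median of 0.52. The 30 called higher were picked by the same test, which leaves small changes out. Their log2 fold changes ran from 0.34 to 1.49 with a median of 0.60, or 1.52-fold, and 22 of the 30 lay between 0.3 and 0.8. That spread is thus partly set by the call. Of all 42 members, 31 to 34 had a log2 ratio above the tumour's autosomal median in the Tn tumours, and 13 to 28 in the WT tumours. The median SD of log2 CPM between tumours of a group was 0.16 in WT and 0.20 in Tn for the 42 members, against 0.16 and 0.18 over all autosomal genes. When the members on the immune and stromal lists were taken out, 29 of 36 rose and the median over the autosomes was 0.48. The part of cell composition in this stretch was not tested, and DNA was not analysed here.

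C1galt1, the gene of T-synthase (ENSMUSG00000042460), lies in this stretch at chr6:7844842-7875687. Its lowest, median and highest levels were 67.8, 72.9 and 88.3 CPM in WT tumours and 79.9, 104 and 111 CPM in Tn tumours. The Tn tumours were higher, with 1 Tn tumour inside the WT range. The log2 fold change was 0.44 ± 0.089 SE (edgeR adjusted p = 0.00261), below the median of the stretch. Its neighbour Mios, a component of the GATOR2 complex that signals amino acids to mTORC1, went from 16.5, 17 and 19.9 CPM to 20.4, 23.5 and 24.6 CPM, a log2 fold change of 0.40 (adjusted p = 0.00126), with no overlap. Asns, asparagine synthetase, on the other side of C1galt1, did not pass (0.10, adjusted p = 0.489).

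Casd1, which acetylates sialic acid on glycans, also rose. Its levels were 39.9, 45.5 and 62.8 CPM in WT and 73.9, 83.1 and 90.0 CPM in Tn tumours. Every Tn tumour was above every WT tumour (log2 fold change 0.82 ± 0.10 SE, edgeR adjusted p = 0.000144). Casd1 is part of an imprinted cluster, a group of neighbouring genes some of which are read from only 1 parental copy. In that cluster 4 genes rose and 1 fell. Ppp1r9a, an actin-binding regulator of protein phosphatase 1, rose from 8.23, 10.7 and 18.6 CPM to 24.6, 29.3 and 54.8 CPM, the largest log2 fold change of the stretch (1.49 ± 0.27 SE, adjusted p = 0.00129). The paraoxonase Pon3, a lactone-cleaving enzyme, rose from 20.7, 28.9 and 34.4 CPM to 51.1, 66.1 and 76.8 CPM (1.23, adjusted p = 5.91e-05). Neither gene's groups overlapped. Pon2 next to it moved less (0.38, adjusted p = 0.00348) and its groups overlapped. Sgce, epsilon-sarcoglycan, lies between Casd1 and Ppp1r9a and fell from 4.97, 8.43 and 9.93 CPM to 2.93, 3.42 and 4.77 CPM (-1.15, adjusted p = 0.000589). It passed the level cut only through the WT tumours, so the cut favoured its direction. Of the 8 imprinted-list members on the whole chromosome, 6 rose and 2 fell (75% and 25%, beside 36.4% and 10.2% of all members). The others were Herc3 (0.81) and Copg2 (0.30), which rose, and Mest, a hydrolase-like protein, which fell (-0.73, adjusted p = 0.0156). Allele of origin was not measured.

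Sem1 and Rpa3 had the smallest adjusted p-values of the stretch. Sem1, a small acidic subunit of the 26S proteasome that also binds BRCA2 (ENSMUSG00000042541, chr6:6557294-6578663), had 62.3, 82.5 and 89.2 CPM in WT tumours and 147, 171 and 193 CPM in Tn tumours. The lowest Tn tumour was well above the highest WT tumour, and the log2 fold change of 1.09 ± 0.092 SE had an edgeR adjusted p of 1.41e-05. Rpa3, the smallest subunit of the single-strand binding protein RPA, went from 19.6, 21.7 and 24.9 CPM to 36.4, 44.8 and 48.6 CPM (0.99 ± 0.086 SE, adjusted p = 1.88e-05), again with no overlap. Umad1 starts on the opposite strand next to Rpa3 and rose by 0.63 (adjusted p = 0.0026). Strand was not used in the counting, so reads of close or overlapping partners on opposite strands cannot be told apart.

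Among the members that rose were 4 genes with mitochondrial products, grouped here after their values were seen. Ndufa4, a subunit associated with cytochrome c oxidase, had 79.8, 93.4 and 134 CPM in WT and 173, 183 and 233 CPM in Tn tumours (log2 fold change 0.98 ± 0.12 SE, edgeR adjusted p = 0.000129). Ndufa5, a subunit of respiratory complex I, had 18.2, 23.5 and 30.1 CPM and 31.4, 33.0 and 39.8 CPM (0.53, adjusted p = 0.00316). Slc25a13, the mitochondrial aspartate-glutamate carrier citrin, rose by 0.57, and Sdhaf3, an assembly factor of succinate dehydrogenase, by 0.68. In each of these 4 genes all Tn tumours exceeded all WT tumours. The same held for 22 of all 42 members of the stretch and for 12.6% of autosomal genes at the level cut. Sdhaf3 passed the level cut only through the Tn tumours, so the cut favoured its direction. Outside the stretch the related subunits Ndufa9 (0.24, adjusted p = 0.0618) and Ndufb2 (0.20, adjusted p = 0.122) did not pass.

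The stretch also carries genes of membrane traffic, chromatin and secretion. Vps50, a subunit of an endosomal recycling complex, rose by 0.54 and Bet1, a SNARE of transport between endoplasmic reticulum and Golgi, by 0.69. Tmem106b, a lysosomal membrane protein, rose by 0.67, and Cadps2, which primes secretory vesicles, by 1.33. Among nuclear factors, Tfec, a relative of MITF, went from 2.7, 3.24 and 5.60 CPM to 6.78, 7 and 12.7 CPM (1.21, edgeR adjusted p = 0.00109). Tfec passed the level cut only through the Tn tumours, so the cut favoured its direction. The PHD finger protein Phf14 rose by 0.68 and Ing3, a subunit of the NuA4 acetyltransferase, by 0.34, the smallest rise of the 30. Fam3c, a secreted cytokine-like protein, rose by 0.63. Samd9l, an interferon-induced antiviral gene and the first member of the chromosome, went from 31.8, 46.2 and 53.0 CPM to 49.9, 60.8 and 93.8 CPM, with overlap (0.55, adjusted p = 0.0145).

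The Met and caveolin neighbourhood, near 17 Mb, was mixed. Capza2, an actin-capping subunit, went from 192, 205 and 212 CPM to 267, 287 and 345 CPM (log2 fold change 0.53 ± 0.065 SE, edgeR adjusted p = 0.000123), with no overlap. Tes, a focal adhesion protein, rose by 0.56 and St7 by 0.47. With Tfec, 4 of the 7 members of this list rose (57.1%, beside 71.4% in the stretch). Met, the receptor of hepatocyte growth factor, had 121, 142 and 149 CPM in WT and 103, 124 and 200 CPM in Tn tumours. The group means were equal at 138 CPM, and the log2 fold change was 0.00 ± 0.15 SE (adjusted p = 0.99). Cav1, the main coat protein of caveolae, did not pass (0.09 ± 0.26 SE, adjusted p = 0.805), with WT tumours spread from 49.7 to 195 CPM, nor did its partner Cav2 (-0.12, adjusted p = 0.513).

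The 5 members of the stretch that fell included a collagen chain and a protease inhibitor of the matrix. Col1a2, a chain of type I collagen, had 2077, 3379 and 5042 CPM in WT tumours and 680, 967 and 1191 CPM in Tn tumours (log2 fold change -1.87 ± 0.20 SE, edgeR adjusted p = 5.94e-05). Tfpi2, a secreted protease inhibitor of the matrix, fell from 17.9, 26.5 and 34.4 CPM to 5.35, 7.49 and 11.4 CPM (-1.70, adjusted p = 0.000102). Neither gene's groups overlapped. Besides Sgce, Cped1 (-1.06) and Tspan12, a tetraspanin of Norrin signalling (-0.90, adjusted p = 0.0359), also fell. Sgce and Tspan12 had a mean under 5 CPM in Tn tumours alone, so the level cut favoured their direction. Fibroblast markers moved in the same direction, as given with the marker sums, and their part in these falls was not tested. Of 20 further protein-coding genes of the stretch under the level cut, 1 was higher (5%) and 6 were lower (30%), with a median of -0.56. Protein-coding genes under the cut after 25 Mb were higher in 21.6% and lower in 20.1%, with a median of -0.0074. The rise of the members was thus not seen in the low-level genes of the stretch. Of 16 genes there that do not code for protein, 4 were higher and none lower (0 also at an unadjusted p under 0.05 in edgeR and in DESeq2), with a median of 0.19.

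The run of higher genes stopped at Ndufa5 (start 24518665). The next 4 members were Wasl, the actin nucleation factor N-WASP (log2 fold change -0.13), Pot1a, a telomere protein (-0.05), Zfp800 (-0.15) and Gcc1 (0.03), and none passed (edgeR adjusted p of 0.147, 0.704, 0.299 and 0.736). Wasl held 57.1, 60.8 and 69.7 CPM in WT and 51.0, 56.3 and 63.2 CPM in Tn tumours. Single genes farther on were again higher. Arf5 rose by 0.48, and Snd1, a component of the RNA-induced silencing complex, went from 153, 166 and 188 CPM to 239, 294 and 319 CPM (0.78 ± 0.074 SE, adjusted p = 3.09e-05). Arf5 and Gcc1 overlap on opposite strands. The names of this paragraph other than Ndufa5, Wasl and Pot1a were chosen after their values were seen, as were those of the stretch that belong to no list.

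**Figure D4:**
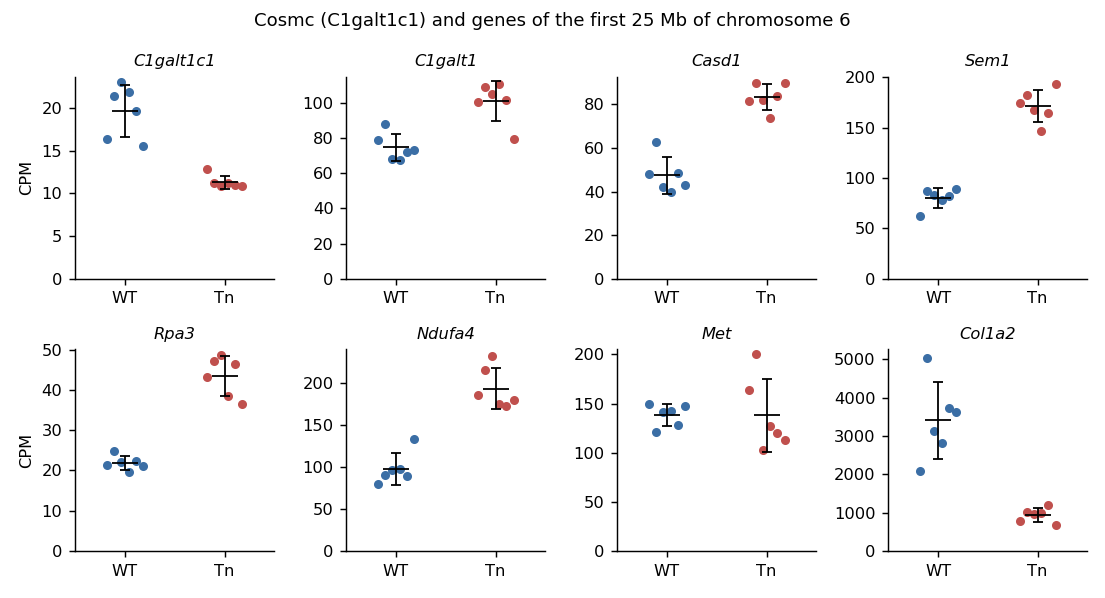
Level in CPM of Cosmc (C1galt1c1, on the X chromosome) and of 7 members of the first 25 Mb of chromosome 6, each point 1 tumour, with mean (long line) and SD (error bar) of 6 tumours. Casd1, Sem1, Rpa3 and Ndufa4 have every Tn tumour above every WT tumour, C1galt1 has 1 Tn tumour at 79.9 CPM inside the WT range, Met has equal means, and Col1a2 and Cosmc have every Tn tumour below.

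Beyond 25 Mb, 3 members on the glycosylation list were among the 10 largest rises or the 10 largest falls of the chromosome. St3gal5, the sialyltransferase that makes the ganglioside GM3 (ENSMUSG00000056091, chr6:72074576-72131555), had 6.43, 7.29 and 7.67 CPM in WT tumours and 25, 47 and 55.2 CPM in Tn tumours. The WT tumours lay close together and the lowest Tn tumour was far above them (log2 fold change 2.61 ± 0.17 SE, edgeR adjusted p = 1.86e-06). B4galnt3, which adds N-acetylgalactosamine to make the LacdiNAc structure (ENSMUSG00000041372, chr6:120180034-120271520), had 10.5, 29.5 and 32.9 CPM in WT and 0.557, 1.66 and 2.73 CPM in Tn tumours. It was the largest fall of the chromosome, without overlap (-3.95 ± 0.40 SE, adjusted p = 4.95e-05). Gxylt2, which extends O-glucose on Notch-type repeats with xylose, fell from 8.98, 11.1 and 14.7 CPM to 2.01, 3.14 and 6.15 CPM (-1.69, adjusted p = 0.000249). B4galnt3 and Gxylt2 had a mean under 5 CPM in Tn tumours and reached the level cut only through the WT tumours. The cut therefore favoured the direction of both.

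Of the 12 glycosylation members, 5 rose and 2 fell (41.7% and 16.7%, beside 36.4% and 10.2% of all members), with a median of 0.14. Besides St3gal5, Casd1 and C1galt1, the mannose 6-phosphate receptor M6pr rose by 0.38 and Rpn1, a subunit of oligosaccharyltransferase, also by 0.38. Cmas, which activates sialic acid, had a log2 fold change of 0.02 (edgeR adjusted p = 0.891). Gfpt1, the entry enzyme of hexosamine synthesis (0.11, adjusted p = 0.322), and Eogt (-0.12, adjusted p = 0.375) did not pass either.

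Of the 5 genes on the T cell list 4 were members, and these were higher in Tn tumours. Cd8a, Cd8b1 and Cd4 had a mean under 5 CPM in WT tumours and reached the level cut only through the Tn tumours, so their direction was favoured by the cut and the count supports nothing. Cd8a and Cd8b1, the 2 chains of the CD8 co-receptor, start at 71350411 and 71299772. Cd8a had 0.112, 2.40 and 4.69 CPM in WT tumours and 10.1, 21.2 and 50.7 CPM in Tn tumours (log2 fold change 3.45 ± 0.69 SE, edgeR adjusted p = 0.00235). Cd8b1 had 0.231, 0.771 and 2.1 CPM and 5.16, 10.1 and 39.6 CPM (3.90 ± 0.66 SE, adjusted p = 0.00096). The groups did not overlap in either chain. Cd4 had 0.954, 1.75 and 2.50 CPM in WT and 1.93, 5.14 and 64.6 CPM in Tn tumours (3.08 ± 0.85 SE, adjusted p = 0.0138). Its highest value came from Tn tumour 4, and without that tumour the log2 fold change was 1.41 (adjusted p = 0.0154). Lag3, an inhibitory receptor of activated T cells, rose by 1.39 (adjusted p = 0.011). The 7 T cell markers, none of them on this chromosome's lists, rose as well, and their part in these results was not tested.

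In the natural killer gene complex and its neighbouring lectins, 6 of 7 members rose (85.7%, beside 36.4% of all members). None fell (0 also at an unadjusted p under 0.05 in edgeR and an adjusted p under 0.05 in DESeq2). The list names 40 genes, so most of the complex lay under the level cut. Klrk1 and Klrb1b passed the cut only through the Tn tumours, so the count is partly set by the cut. Klrk1, which encodes the activating receptor NKG2D, had 0.582, 2.20 and 4.82 CPM in WT tumours and 4.09, 9.37 and 25.3 CPM in Tn tumours (2.38 ± 0.53 SE, edgeR adjusted p = 0.00461). Clec7a, the fungal glucan receptor Dectin-1 of myeloid cells, had 10.7, 26.1 and 44.5 CPM and 56.9, 71.2 and 146 CPM (1.70 ± 0.33 SE, adjusted p = 0.00192). Clec7a did not overlap between groups and Klrk1 did. Klrb1b rose by 1.88 and Klra2 by 1.61, and Clec2d, whose product is a ligand of the Klrb1b receptor, rose by 0.91. Clec2f was the member that did not pass (-0.36, adjusted p = 0.258). Members of the Klr and Clec families are close paralogs, so counts between them are uncertain. Natural killer and macrophage markers moved in the same direction, and their part was not tested. Klrb1c, which is among those markers, belongs to the complex itself and lay under the level cut.

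Of the 6 members in the Dectin-2 and DCIR lectin cluster, 4 rose (66.7%, beside 36.4% of all members). Clec4n, which encodes Dectin-2, went from 26.5, 38.5 and 51.6 CPM to 49.5, 65.2 and 84.9 CPM (0.77 ± 0.17 SE, edgeR adjusted p = 0.00464). Clec4a3 rose by 1.53, Clec4a1 by 1.37 and Clec4a2 by 0.94. Clec4a1 and Clec4a2 had adjusted p of 0.0284 and 0.0278, and lost the call when single tumours were left out (WT tumours 3, 4 or 6, Tn tumours 1 or 2, and for Clec4a1 also Tn tumour 6), at up to 0.0716. Clec4d (-0.60, adjusted p = 0.102) and Clec4e, or Mincle (0.12, adjusted p = 0.763), did not pass.

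The Gimap genes, GTPases of lymphocytes and endothelium, showed how far a single tumour can set a value. Gimap3 had the largest rise of the chromosome, from 0.335, 0.965 and 2.13 CPM in WT to 3.56, 7.77 and 85.7 CPM in Tn tumours (log2 fold change 4.12 ± 0.88 SE, edgeR adjusted p = 0.00345). It passed the level cut only through the Tn tumours. Its groups did not overlap, and without Tn tumour 4 the value was 2.66 (adjusted p = 0.00173). The other 6 members did not pass. Gimap6 reached 92.5 CPM in Tn tumour 4, where the next highest Tn tumour held 15.8 CPM (0.98, adjusted p = 0.198), and without that tumour the value was -0.12. Gimap4 did not pass either (0.74, adjusted p = 0.186). Gimap1 (1.59, adjusted p = 0.0607) passed with DESeq2 (adjusted p = 0.0322), and in edgeR when Tn tumour 3, 5 or 6 was left out. It reached 37 CPM in Tn tumour 4, where the nearest Tn tumour held 6.85 CPM. With single tumours left out its value ran from 0.43 to 1.79, at an edgeR adjusted p of up to 0.216.

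Of 23 members among complement, cytokine receptor and other immune genes, 14 rose (60.9%, beside 36.4% of all members). None fell (0 also at an unadjusted p under 0.05 in edgeR and an adjusted p under 0.05 in DESeq2). Of the 23, 21 had a log2 fold change above 0. Of the 14, C1rl passed the level cut only through the Tn tumours. Tbxas1, thromboxane synthase of macrophages and platelets, went from 7.5, 10.6 and 17.1 CPM to 17.6, 34.8 and 62.1 CPM (1.62 ± 0.33 SE, edgeR adjusted p = 0.00267). Irf5, a transcription factor of inflammatory macrophages, rose by 1.03, the anaphylatoxin receptor C3ar1 by 0.91, and the interferon-regulated Parp11 by 0.96. Il17rc, a subunit of the interleukin-17 receptor, rose by 0.64 and Vamp8, a SNARE of granule release, by 0.52, both without overlap. Plbd1, a phospholipase of myeloid cells, stands on no list and rose from 11.8, 19.1 and 26.2 CPM to 25.6, 70.7 and 159 CPM (2.19, adjusted p = 0.00134). Among the genes that did not pass was the scavenger receptor Cd163 (-0.75, adjusted p = 0.175).

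The 25 matrix and stromal members held 10 falls and 4 rises (40% and 16%, beside 10.2% and 36.4% of all members), with a median of -0.26. Besides Col1a2, Fbln2, an elastic fibre protein, fell from 864, 1180 and 1278 CPM to 314, 514 and 851 CPM (-1.02 ± 0.22 SE, edgeR adjusted p = 0.00341). Vwf, the endothelial clotting factor, fell by 1.27 on the log2 scale (adjusted p = 0.00115). Of genes on no list, Mfap5, a microfibril protein, fell by 1.78 (adjusted p = 0.000619), with 61.6 to 133 CPM in WT and 11.2 to 44.3 CPM in Tn tumours, and the smooth muscle actin Actg2 fell by 2.28 (adjusted p = 0.00153). Ptn, the growth factor pleiotrophin, ranged from 0.362 to 62.7 CPM among WT tumours alone, and its fall (-2.35 ± 0.79 SE, adjusted p = 0.0341) was lost when WT tumour 3 or 6 or Tn tumour 2, 3, 5 or 6 was left out, at up to 0.0879. Without WT tumour 6 its value was -1.68. Ptn also passed the level cut only through the WT tumours, so the cut favoured its direction.

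Mgp moved against its list. This gene of matrix Gla protein, an inhibitor of calcification (ENSMUSG00000030218, chr6:136849433-136852821), had 31.3, 41.8 and 52.4 CPM in WT tumours and 141, 277 and 1462 CPM in Tn tumours. The groups did not overlap (log2 fold change 3.73 ± 0.58 SE, edgeR adjusted p = 0.000589). Of the potassium channel pair Kcnj8 and Abcc9, neighbouring genes of pericytes named after their values were seen, Kcnj8 fell by 1.25 and Abcc9 by 1.54, both without overlap. Markers of endothelium (4 of 5 lower, 257 to 439 CPM in WT and 162 to 326 CPM in Tn tumours) and of pericytes and smooth muscle (4 of 5 lower, 304 to 602 and 65.8 to 244 CPM) moved alongside. None of these markers was at 0 in any tumour, and their part was not tested.

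The Hoxa genes, which give cells positional identity, mostly fell. Of 9 members of the list, which includes the flanking genes Skap2 and Snx10, 5 fell (55.6%, beside 10.2% of all members) and 1 rose. Hoxa5 had 135, 159 and 166 CPM in WT tumours and 77.9, 96.8 and 106 CPM in Tn tumours (log2 fold change -0.71 ± 0.079 SE, edgeR adjusted p = 7.36e-05). Hoxa6 (-0.85) and Hoxa3 (-0.65) also fell without overlap, and Hoxa2 (-0.39) with overlap. Hoxa6 passed the level cut only through the WT tumours, so the cut favoured its direction. Hoxa10, toward the 5′ end of the cluster, rose from 17.9, 21.8 and 24.7 CPM to 22.5, 28.7 and 43.6 CPM (0.51, adjusted p = 0.0136). Hoxa7, which starts between Hoxa6 and Hoxa10, did not pass (0.05, adjusted p = 0.815), nor did Skap2 and Snx10. Hoxa genes overlap each other and antisense transcripts, so their counts are uncertain.

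Among 34 growth signalling and cell cycle members, 3 rose and 9 fell (8.82% and 26.5%, beside 36.4% and 10.2% of all members), with a median of -0.03. Wnt7a, a secreted Wnt ligand, fell from 4.02, 14.1 and 22.1 CPM to 0.0148, 2.42 and 3.49 CPM (-2.75 ± 0.75 SE, edgeR adjusted p = 0.0135), with no overlap. It passed the level cut only through the WT tumours, so the cut favoured its direction. Tgfa, a ligand of the EGF receptor, fell from 177 ± 33.5 to 108 ± 18.1 CPM (SD, n = 6 each), without overlap (-0.72, adjusted p = 0.00231), and Bhlhe40, a hypoxia-responsive repressor, fell by 0.80. Smaller falls included those of Dusp11 (-0.35), Braf (-0.27) and the mitotic transcription factor Foxm1 (-0.42). The rises were those of Rpa3, Vhl (0.26) and Mxd1 (0.52). Ccnd2 (0.01) and Ezh2 (-0.18) did not pass.

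The list of glycolysis, respiration and translation genes also held genes of other functions, so its count is not one of these functions alone. Among them were Arpc4, Usp5, Rab7 and Copg1, which rose, and Cbx3 and Cops7a, which did not pass. Of its 41 members, 17 rose (41.5%, beside 36.4% of all members) and 24 did not pass. None fell (0 also at an unadjusted p under 0.05 in edgeR and an adjusted p under 0.05 in DESeq2), and the median was 0.22. Atp6v1f, a subunit of the proton pump, went from 56.4, 63.8 and 67.0 CPM to 82.7, 88.7 and 95.5 CPM (0.50, edgeR adjusted p = 0.000112). The ribosomal protein gene Rpl32 went from 493, 563 and 591 CPM to 633, 710 and 752 CPM (0.34, adjusted p = 0.00154). Both were without overlap. Emg1, a ribosome maturation factor, rose by 0.38 and Hk2, hexokinase 2, by 0.70, whereas Gapdh (0.01) and Tpi1 (0.08) did not pass. Per kilobase of gene length, the highest mean levels of the chromosome were those of Tmsb10 (674 CPM per kb), Rpl32 (654), Gapdh (295), Tpi1 (278), Mgp (254) and Ptms (235).

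Of the 5 members on the muscle, keratin and adipocyte list, 2 fell (40%, beside 10.2% of all members). They were Mgll, a lipase of adipocytes and other cells (-1.52, edgeR adjusted p = 0.00814), and Tmem40 (-0.87, adjusted p = 0.0086). The lipid droplet gene Cidec ran from 0.576 to 159 CPM among WT tumours and did not pass (-1.95, adjusted p = 0.136). Also among the 10 largest falls were Bcat1, an aminotransferase of branched-chain amino acids (-1.64, adjusted p = 0.0003), and Depp1 (-1.73, adjusted p = 0.00442). The last member of the chromosome, Resf1, which starts at 149210912, rose by 0.43 (adjusted p = 0.0105). Genes near the level cut were Sdhaf3 (5.27 CPM) and Clec4e (5.02 CPM) inside it, and Pparg (4.99 CPM) and Wdr54 (4.98 CPM) outside it. The 224 tested protein-coding genes of the chromosome under the level cut had a median log2 fold change of -0.05, with 45 higher and 47 lower.

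**Figure D5:**
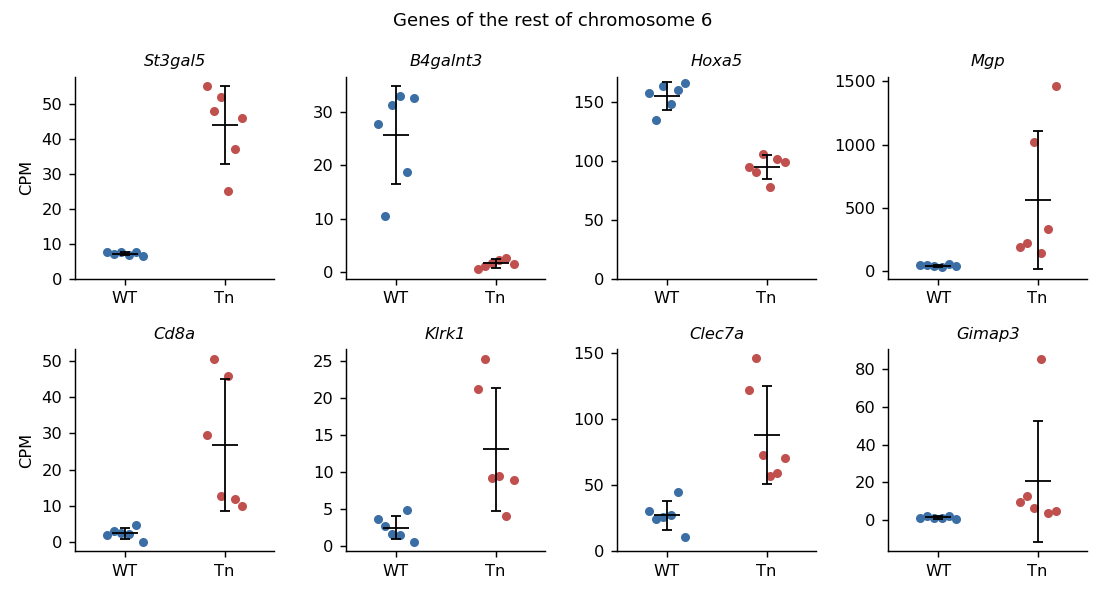
Level in CPM of 8 members beyond the first 25 Mb, each point 1 tumour, with mean (long line) and SD (error bar) of 6 tumours per group. St3gal5 and Hoxa5 show groups that do not overlap, and St3gal5 is tight in WT tumours only. B4galnt3 is near 0 in Tn tumours, and the immune genes Cd8a, Klrk1, Clec7a and Gimap3 and the matrix gene Mgp spread widely among Tn tumours.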

How the data were processed

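RNA of 12 whole tumours was sequenced, 6 per group as given by the genotype label. Trimming used fastp 0.23, alignment to GRCm39 used STAR 2.7.11a, and counting used featureCounts (Subread 2.1.1), all per the submitters' processing notes. The deposited values are raw counts over exons of the Ensembl 112 genes, made by the authors with no strand setting and with each mate of a pair counted by itself, per the file headers. Between 66.4% and 72.5% of the counts from 1 to 20 were even, so most pairs add 2. The library totals of 113575859 to 156880766 exceed the number of reads stated by the submitters, and the cause was not tested. The common biological coefficient of variation was 0.358. Of 57186 identifiers, 56630 were paired with a symbol of GENCODE M39, a later annotation of the same build, and 56593 overlapped its position. The deposited column of gene lengths, in bases, served only for levels per kilobase.

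The groups were compared in edgeR 4.0.16 under R 4.3.3 (quasi-likelihood test with robust fits, two-sided, TMM factors, genes filtered with filterByExpr by group, no covariate), and p-values were adjusted over all 19255 genes by the method of Benjamini and Hochberg. Printed CPM are TMM-scaled, and the level rule used CPM of the column totals. A tumour's ratio is its log2 CPM (prior count 2) less the mean of the WT tumours (the other 5 for a WT tumour), less the tumour's median over autosomal genes at the level cut. Each standard error was taken as the log2 fold change over the root of F. The test was checked on simulated counts. The p-values measure the spread between these tumours.

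The members, lists, border at 25 Mb and bins were chosen with earlier results of these data known. The rule names C1galt1c1, the 10 largest rises and falls past the threshold, the 6 highest levels per kilobase, up to 4 members with the smallest p of each of 13 lists, the ends of the chromosome and of the step, and those at the level cut. Other genes were named after their values were seen. Some genes that the rule names are not reported here. As alternatives, RLE and upper-quartile factors, DESeq2 1.42.0, other filters and level cuts, the replicate number as a block, tumours left out, a trimmed mean and other bins were tried.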

Additional observations from a re-analysis of the deposited data

Results flagged for a closer look

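In 144 checks of a named gene in a group of 6 tumours and 36 checks of a region, 17 values lay apart from the other 5 by more than Dixon's critical share of the group's range. Chance gives about 1 in 20 such values, and the causes were not tested.

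In Tn tumours, C1galt1c1 was 12.9 CPM in tumour 1 against 11.2 in the nearest. Tn tumour 4 had 37 CPM of Gimap1 (nearest 6.85), 92.5 CPM of Gimap6 (nearest 15.8) and 120 CPM of Hk2 (nearest 176). Ndufa5 reached 39.8 CPM in Tn tumour 2 (nearest 33.8). Tn tumour 6 was lowest in Tmsb10 (694 CPM, nearest 915) and Wnt7a (0.0148 CPM, nearest 0.853).

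In WT tumours, Cd8a was 0.112 CPM in tumour 6 (nearest 2.06), Clec2d 27.2 CPM in tumour 5 (nearest 21), and Clec4a2 16.3 CPM in tumour 2 (nearest 11.5). WT tumour 1 held 7.35 CPM of Gimap6 (nearest 12.9) and 0.362 CPM of Ptn (nearest 10.8). Tfec was 5.60 CPM in WT tumour 2 (nearest 3.55).

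Along the chromosome, the first 25 Mb had a median log2 ratio of 0.57 in Tn tumour 2, above 0.44 in the nearest Tn tumour, and the bin from 10 to 20 Mb had 0.64 in the same tumour, above 0.46. WT tumour 4 was lowest in the bin from 90 Mb, at -0.070 (nearest 0.013), and in the bin from 130 Mb, at -0.19 (nearest 0.0051).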

How the results depend on the processing

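The count of 30 higher genes in the first 25 Mb was the same with RLE and upper-quartile scaling, DESeq2, no filter, a filter at 1 CPM, the replicate block and with 1 or 3 tumours left out. With an adjusted p under 0.01, 123 of the 196 higher members and 28 of the 30 remained. Members at a mean of 20 CPM gave 29 lower calls in place of 55, where fewer genes are counted. Members at a mean of 1 CPM gave 81 lower calls. In the first 25 Mb that cut gave 31 of 50 higher (62%, in place of 71.4%) and a median over the autosomes of 0.41. Of the medians along the chromosome, 8 moved by more than the SD between tumours under a trimmed mean and 10 did not. It gave 0.37 in place of 0.46 for the first 25 Mb and turned the bin from 100 Mb from 0.083 to -0.088 (13 members). Leaving out each tumour gave 176 to 205 higher and 45 to 55 lower members, 30 to 30 higher in the first 25 Mb, medians over the autosomes of 0.092 to 0.13 for the chromosome and 0.42 to 0.47 for the first 25 Mb, and -0.85 to -0.74 for C1galt1c1. Upper-quartile scaling gave 171 higher and 63 lower.

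The numbers do not pair the tumours, since the correlations of same-numbered deviations ran from -0.13 to 0.16. With the replicate block, 170 members were higher and 51 lower, C1galt1c1 was -0.78, and Cd4 (1.75, edgeR adjusted p = 0.0901), Clec4a1 (1.14, 0.0934), Ptn (-1.84, 0.246) and Wnt7a (-2.98, 0.0565) did not pass.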
